A study of Rattus norvegicus with 12 samples.

Results

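The comparison sets the second time point of an early time course against the first: 3 libraries from cells exposed to 10 µM PT109B for 3 h against 3 libraries from cells exposed for 1.5 h, tested directly and without the controls. These are 6 of the 12 libraries of the series, which also holds 3 controls at 0 h and 3 libraries at 6 h, used here as levels before and after and, in a second fit to all 12 libraries, for the estimate of the spread. All groups are wild-type primary astrocytes from the midbrain of newborn Sprague-Dawley rats, grown in DMEM with 10% fetal bovine serum and antibiotics, so the growth factors of serum were present in every group. PT109B is a small molecule known here by its code name. Primary cultures of this kind can hold other glial cells beside astrocytes, and the labels give no measure of purity. All 9721 genes of the deposited table were taken, and 9240 of them had enough counts to be tested. The labels do not say whether the 3 libraries of a time came from separate cultures or litters, and the p-values therefore rest on a spread between libraries that may be technical.

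Cells that receive a stimulus first transcribe immediate early genes, whose messages are short-lived and encode transcription factors such as Fos and the Egr proteins. Those factors, and the feedback inhibitors made with them, then act on a delayed set of genes. Other pathways are read through their own short-lived targets: bone morphogenetic proteins (BMPs) act through Smad factors on the Id genes, which block basic helix-loop-helix factors, and Notch receptors act through RBPJ on Hes and Hey repressors. In astrocytes the Id and Hes proteins are known for holding back neuronal genes.

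Promoter sequences are shown for the 3 largest falls and the 3 largest rises that had a single entry in RefSeq's rat promoter table (assembly GRCr8). They are given 5′ to 3′ as the 250 bases before the annotated start, with letters of searched motifs in capitals. The build of the deposited table is not given in the sources used here, so the coordinates are those of RefSeq.
Hes1: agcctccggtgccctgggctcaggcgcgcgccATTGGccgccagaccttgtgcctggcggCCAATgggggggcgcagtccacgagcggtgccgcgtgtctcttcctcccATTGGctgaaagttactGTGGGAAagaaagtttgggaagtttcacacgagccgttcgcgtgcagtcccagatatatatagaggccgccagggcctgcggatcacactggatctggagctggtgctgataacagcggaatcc
Id3: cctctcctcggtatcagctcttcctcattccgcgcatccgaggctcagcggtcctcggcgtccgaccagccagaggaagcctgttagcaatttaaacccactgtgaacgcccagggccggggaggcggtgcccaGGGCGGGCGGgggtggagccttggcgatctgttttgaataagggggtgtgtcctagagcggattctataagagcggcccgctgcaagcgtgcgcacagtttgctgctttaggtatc
Id1: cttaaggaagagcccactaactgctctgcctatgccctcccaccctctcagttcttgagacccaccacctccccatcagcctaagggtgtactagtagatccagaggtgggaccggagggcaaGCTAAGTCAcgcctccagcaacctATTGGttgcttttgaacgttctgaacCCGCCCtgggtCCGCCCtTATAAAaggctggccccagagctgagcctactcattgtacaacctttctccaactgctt
Insyn2a: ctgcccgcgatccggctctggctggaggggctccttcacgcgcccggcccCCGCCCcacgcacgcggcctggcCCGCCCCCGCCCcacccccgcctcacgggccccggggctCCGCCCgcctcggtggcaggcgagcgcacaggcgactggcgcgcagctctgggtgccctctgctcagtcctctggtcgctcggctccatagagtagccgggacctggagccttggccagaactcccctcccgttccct
Kcnf1: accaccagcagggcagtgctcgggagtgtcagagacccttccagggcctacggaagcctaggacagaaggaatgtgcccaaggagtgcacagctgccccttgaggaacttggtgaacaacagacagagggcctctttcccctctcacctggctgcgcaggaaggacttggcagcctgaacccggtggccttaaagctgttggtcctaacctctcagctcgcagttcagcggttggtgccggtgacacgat
Fhdc1: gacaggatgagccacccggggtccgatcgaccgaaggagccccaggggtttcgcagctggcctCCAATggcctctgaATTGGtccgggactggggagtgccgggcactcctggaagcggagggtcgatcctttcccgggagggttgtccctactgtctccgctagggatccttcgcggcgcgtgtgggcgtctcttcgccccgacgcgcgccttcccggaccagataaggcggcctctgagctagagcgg
The Hes1 stretch (chr11:84213046-84213295, minus strand) holds GTGGGAA, the letters bound by RBPJ, from 124 to 118 bases before the start, and CCAAT or its reverse complement ATTGG 3 times. The Id3 stretch (chr5:153656041-153656290, plus strand) holds a pair of overlapping GGGCGG boxes, read by SP1. The Id1 stretch (chr3:161671314-161671563, plus strand) holds TATAAA from 59 to 54 bases before the start, ATTGG, a pair of CCGCCC boxes (the SP1 letters on the other strand) and GCTAAGTCA, a match to the antioxidant response letters. The Insyn2a stretch (chr1:199182800-199183049, minus strand) holds 4 CCGCCC boxes and, overlapping 2 of them, CGCCCCCGC, the EGR letters on the other strand. The Fhdc1 stretch (chr2:172125957-172126206, minus strand) holds CCAAT and ATTGG, and the Kcnf1 stretch (chr6:45693707-45693956, minus strand) none of the letters marked. A match describes letters and is neither a binding site nor a cause.

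Libraries stood apart within both groups, in the same replicate number. Levels were compared across genes as log2 CPM, where CPM is a count scaled to the library's total after its adjustment by TMM. Replicates 1 and 2 correlated at 0.988 at 1.5 h and at 0.988 at 3 h. Replicate 3 correlated with them at 0.885 and 0.886 at 1.5 h and at 0.933 and 0.934 at 3 h. Replicate 3 of the 1.5 h group was closest to replicate 3 of the 3 h group (0.966). Averaged over 21 microglia markers, replicates 1 and 2 at 1.5 h stood at 3.63 and 3.50 (log2 CPM) and replicate 3 at 6.98, beside 6.17, 6.17 and 6.79 at 3 h and 6.63 to 6.90 in controls. The same mean over 29 mitosis genes was 6.05, 6.15 and 5.87 at 1.5 h, 2.72, 2.61 and 5.62 at 3 h, and 5.61, 2.28 and 2.51 at 6 h, where replicate 1 stood apart. In bulk RNA, fewer cells of a type and less RNA per cell cannot be told apart. The 18 astrocyte identity genes had a mean of 8.59 to 9.21 (log2 CPM) across the 6 libraries, and purity was not tested. Total counts were 9368972 to 12254963.

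Between 1.5 h and 3 h, 63 genes rose and 13 fell, which is 0.682% and 0.141% of the genes tested (edgeR's quasi-likelihood test, Benjamini-Hochberg adjusted p below 0.05). The genes that fell were led by the BMP inhibitor Smad6, the Notch target Hes1, the AP-1 subunit Fos and the Id genes Id3 and Id1. Those that rose were led by the Notch ligand Jag2, the inhibitory synapse gene Insyn2a and the potassium channel subunit Kcnf1. Rises ran from 0.74 to 3.83 and falls from -2.64 to -0.83 on the log2 scale, and 56 and 11 of them were 2-fold or more. All 76 genes kept the 3 libraries of one time clear of the 3 of the other, as did 17.9% of genes tested above and 16.8% below. It follows from this separation that each moved in the same direction in each of the 3 pairs of same-numbered libraries. The plot of levels in the 6 libraries shows the separation gene by gene.

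**Figure D1:**
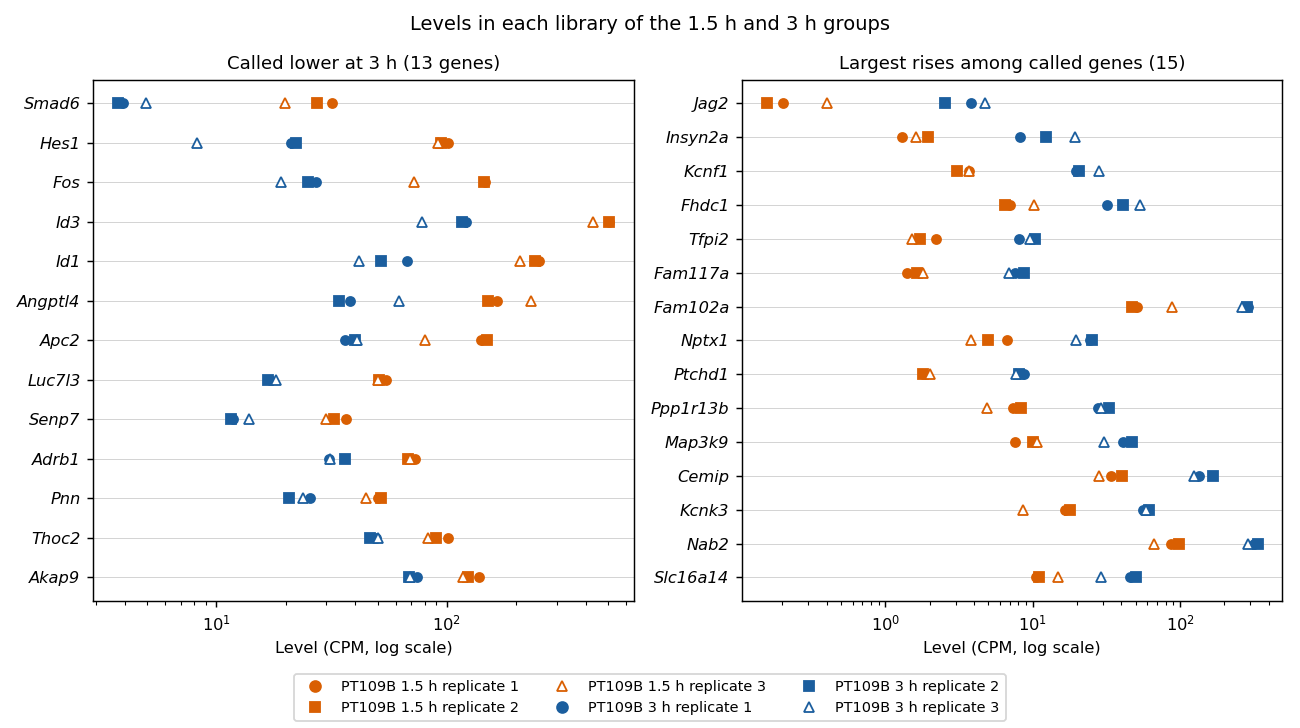
Level of each gene in each library (CPM, log axis) for all 13 genes called lower at 3 h and for the 15 largest rises. Orange is 1.5 h, blue is 3 h, and the open triangle is replicate 3. In each row the 3 blue symbols lie clear of the 3 orange ones, and for Smad6 the 3 h symbols sit between 3.74 and 4.95 CPM against 19.8 to 31.8 at 1.5 h.

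How many genes pass depends on the libraries. With the replicate number as a block no gene passed in either direction (0 higher and 0 lower, smallest adjusted p = 0.116, 2522 genes at an unadjusted p under 0.05). A fit to all 12 libraries, which takes the spread from 4 groups, called 1148 higher (12.1% of 9491) and 781 lower (8.23%). Controls differed less from each other than replicate 3 did from replicates 1 and 2 at 1.5 h and 3 h. The pooled spread can therefore be too small for the 2 groups compared, and adjusted p-values of the 12-library fit too low. Without replicate 3 in both groups 3494 were higher (37.6% of 9303) and 3543 lower (38.1%), and without replicate 1 or 2 none passed (0 called, with 449 and 415 at an unadjusted p under 0.05). Leaving out any single library of replicate 1 or 2 also left 0 calls, and leaving out replicate 3 of the 1.5 h group alone gave 1758 higher and 1133 lower. Dropping the 3 h library of that number gave 1181 and 1404. All 76 genes were also called, in the same direction, in the 12-library fit with and without the block and in the fit without replicate 3. These fits share the 6 libraries and are not independent. Of the calls 82.9% were rises, a share that was 68% under upper-quartile scaling, 46.2% under library-size scaling (6 higher and 7 lower) and 50% when depth was derived by comparing counts with FPKM. Library-size and depth scaling shifted the median log2 change of all genes from 0.03 to -0.21 and -0.18, and all 76 genes kept their sign under each.

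**Figure D2:**
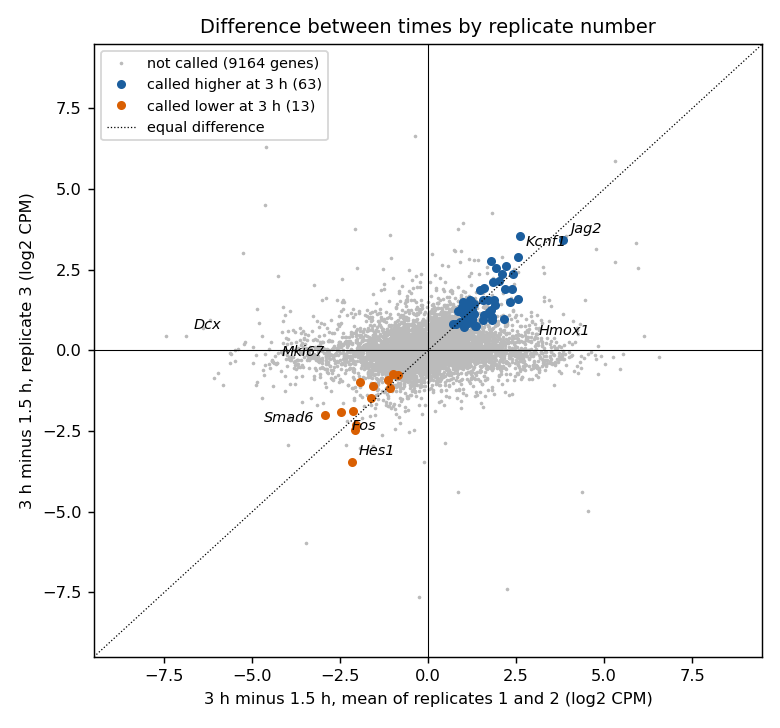
Difference between 3 h and 1.5 h of each tested gene in replicate 3 (vertical, log2 CPM) against the mean difference in replicates 1 and 2 (horizontal, log2 CPM). Grey points are the genes not called, blue the 63 called higher and orange the 13 called lower, and the dotted line marks equal differences. The called genes lie near that line in both directions, which follows in part from the call, since the spread between libraries enters it. Genes such as Dcx and Mki67 differ far along the horizontal axis and little along the vertical one.

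Of the 13 falls, 3 were in genes listed for the BMP pathway, a list of 23 among the 9240 genes tested. Smad6, an inhibitory Smad that is itself induced by BMP signals, stood at 31.8, 27.4 and 19.8 CPM in the 3 libraries at 1.5 h and at 3.93, 3.74 and 4.95 CPM at 3 h, a log2 change of -2.64 ± 0.27 (SE, adjusted p = 0.0217). Its control level was 16.6 ± 1.82 CPM (SD, n = 3) and its 6 h level 2.54 ± 0.942, so 1.5 h was its highest point. Id3 went from 504, 503 and 432 CPM to 121, 116 and 78.2 CPM (log2 -2.19 ± 0.21, adjusted p = 0.0194). Id1 went from 252, 242 and 207 CPM to 66.9, 51.9 and 41.7 CPM (-2.13 ± 0.21, adjusted p = 0.0194). Both proteins bind basic helix-loop-helix factors and keep them off DNA. In each of these 3 genes every 3 h library lay below every 1.5 h library, and the 6 h means (104 ± 11.1 CPM for Id3 and 47.5 ± 7.46 for Id1) stayed near those at 3 h, while in controls Id3 stood at 475 ± 31.4 and Id1 at 159 ± 2.95.

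Of the 23 tested genes listed for the BMP pathway, 0 rose and 3 fell, beside 0.682% and 0.141% of all genes tested. Their median log2 change was -0.85, against 0.03 over all genes tested. The 3 h libraries lay below the 1.5 h ones in 11 of the 23 and above in 3 (16.8% and 17.9% over all genes tested). The median difference was alike in the 3 replicate numbers, at -0.87, -0.78 and -0.82. In the 12-library fit 11 were lower and 1 higher (8.23% and 12.1% over all genes), and with the replicate block added to it 10 and 0. Id2, the remaining member of the named Id set, went from 97.7, 87.4 and 98.7 to 47.5, 41.9 and 28.5 CPM and missed the threshold in the 6-library fit (adjusted p = 0.053), as did Hey1 with 70.0, 72.4 and 55.5 CPM at 1.5 h against 32.9, 35.7 and 24.5 CPM at 3 h (adjusted p = 0.0598). Further members, named after their values were seen, span the pathway. The BMP receptor Bmpr1a stood at 433, 418 and 391 CPM at 1.5 h and 225, 243 and 222 CPM at 3 h. The receptor-activated Smad9 stood at 82.9, 77.7 and 46.8 CPM at 1.5 h and 30.0, 34.5 and 25.8 CPM at 3 h, and the inhibitory Smad7 at 32.5, 29.8 and 29.4 CPM at 1.5 h and 17.8, 15.3 and 12.3 CPM at 3 h. Atoh8 encodes a helix-loop-helix factor and was at 50.01, 49.0 and 36.6 CPM at 1.5 h and 14.4, 11.5 and 4.49 CPM at 3 h. These 4 were lower in the 12-library fit (adjusted p of 0.00232, 0.00506, 0.00364 and 0.0139) and not in the 6-library fit (0.0508, 0.0711, 0.0613 and 0.0638). Smad1, another Smad activated by BMP receptors, ran the other way, from 76.0, 76.9 and 66.2 to 132, 134 and 86.8 CPM, and was the 1 member called higher there (adjusted p = 0.0354, and 0.0562 with the block).

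The Notch pathway held a fall and a rise. Hes1, the repressor that Notch receptors switch on, stood at 101, 94.3 and 91.3 CPM at 1.5 h and 21.0, 22.2 and 8.24 CPM at 3 h (log2 -2.48 ± 0.37, adjusted p = 0.0493). Its control level was 10.6 ± 0.390 CPM, so the 3 h libraries lay on both sides of the control mean, replicate 3 below it and replicates 1 and 2 above. Jag2, a membrane-bound Notch ligand, was at 0.201, 0.157 and 0.403 CPM at 1.5 h, from 2, 2 and 4 reads, and at 3.83, 2.53 and 4.76 CPM at 3 h, from 39, 23 and 52 reads (log2 3.83 ± 0.58, adjusted p = 0.0493). With so few reads at 1.5 h the size of that fold depends on the prior count. It was the 1 called gene that crossed from under 1 CPM in every 1.5 h library to 1 CPM or more in every 3 h library, and it reached 13.5 ± 6.57 CPM at 6 h. Among all 19 tested Notch genes 1 rose and 1 fell, beside 0.682% and 0.141% of all genes tested. Their median log2 change was 0.08, and that median turned negative under upper-quartile, library-size and depth scaling.

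Fos was the 1 immediate early gene of 34 that passed, beside 0.141% of all genes tested called lower and 0.682% higher. It stood at 146, 145 and 71.9 CPM at 1.5 h and 27.0, 24.9 and 19.1 CPM at 3 h (log2 -2.36 ± 0.31, adjusted p = 0.0441), with 13.2 ± 1.27 CPM in controls and 25.7 ± 4.66 at 6 h. Replicate 3 was the lowest library at both times. In the 12-library fit 9 of the 34 were lower and 2 higher, beside 8.23% and 12.1% of all genes. The 3 h libraries lay below the 1.5 h ones in 12 and above in 2, beside 16.8% and 17.9% of all genes. Egr1, a zinc-finger factor, was at 1101, 1123 and 1014 CPM at 1.5 h and 389, 362 and 129.5 CPM at 3 h (adjusted p = 0.0789 in the 6-library fit, 0.00884 in the 12-library fit). Arc, a regulator of AMPA receptor trafficking, was at 98.8, 101 and 119 CPM at 1.5 h and 50.3, 52.7 and 22.0 CPM at 3 h (adjusted p = 0.091 in the 6-library fit and 0.0141 in the 12-library fit). Both stayed above control in all libraries, since controls had 33.7 ± 9.74 CPM of Egr1 and 2.09 ± 0.497 of Arc. Egr3, a relative of Egr1, gave 63.8, 66.9 and 149.9 CPM at 1.5 h and 42.9, 44.8 and 41.4 CPM at 3 h (adjusted p = 0.117 in the 6-library fit), with its high value in replicate 3 at 1.5 h.

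Several immediate early genes instead split by replicate number. Fosb was at 78.6, 77.4 and 121 CPM at 1.5 h and 73.6, 68.8 and 10.8 CPM at 3 h, so that only replicate 3 was far lower. Nr4a1, an orphan nuclear receptor, was at 268, 279 and 402 CPM at 1.5 h and 406, 357 and 54.9 CPM at 3 h, higher at 3 h in replicates 1 and 2 and lower in replicate 3, and neither gene passed in the 6-library or 12-library fit (adjusted p of 0.393 and 0.837 in the former). Nr4a2, which is also a factor of midbrain dopaminergic neurons, gave 11.4, 10.8 and 12.2 CPM at 1.5 h and 43.2, 46.6 and 7.24 CPM at 3 h with the same split and did not pass (adjusted p = 0.177). The list's median difference was -0.09, -0.06 and -0.86 in replicates 1, 2 and 3. Maff, a small Maf factor named after its values were seen, had higher levels at 3 h, with 44.8, 37.8 and 54.4 CPM at 1.5 h and 157, 141 and 68.5 CPM at 3 h (adjusted p = 0.0826 in the 6-library fit and 0.0139 in the 12-library fit).

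**Figure D3:**
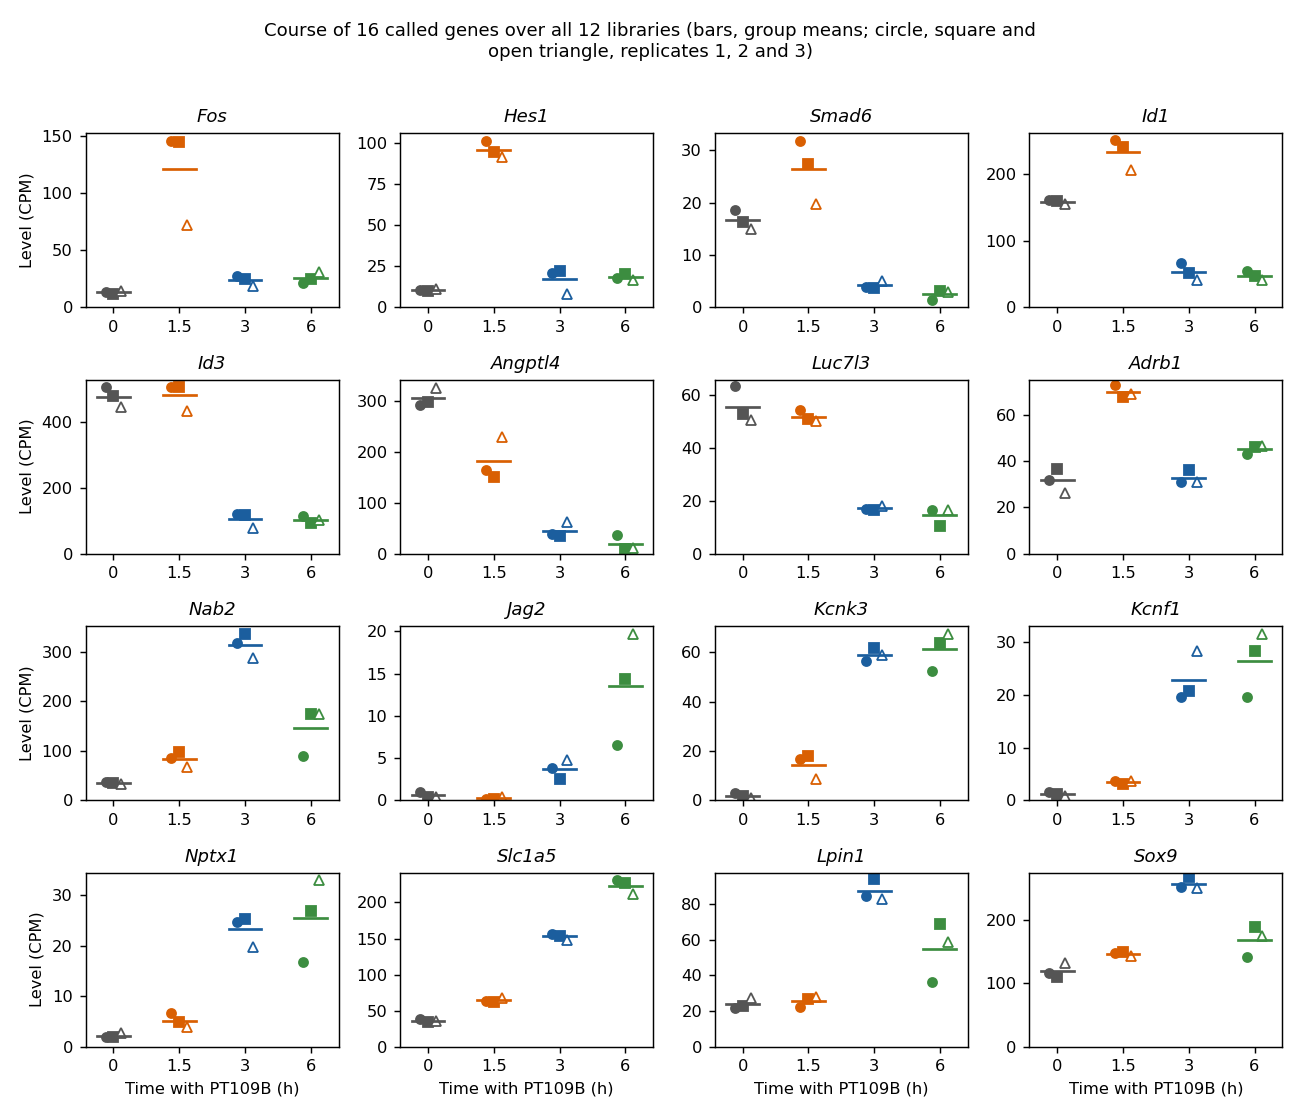
Level (CPM, linear axes from 0) of 16 called genes in all 12 libraries at 0, 1.5, 3 and 6 h. Bars are group means, circles, squares and open triangles replicates 1, 2 and 3. Fos and Hes1 stand high at 1.5 h alone, Smad6, Id1 and Id3 are low at 3 h and 6 h, and Kcnk3, Kcnf1 and Nptx1 are high at 3 h and 6 h.

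Some of the called rises were in genes known for growth factor signalling. Nab2, a corepressor that binds Egr proteins, went from 86.2, 97.8 and 66.8 CPM to 319, 337 and 288 CPM (log2 1.91 ± 0.18, adjusted p = 0.0194) and was at 146 ± 48.2 CPM at 6 h, between its 1.5 h and 3 h means, and at 35.1 ± 2.06 in controls. Map3k9, a kinase upstream of JNK, went from 7.55, 10.0 and 10.7 to 41.0, 47.3 and 30.4 CPM (2.07 ± 0.24, adjusted p = 0.0329). Smad3, which carries TGF-beta signals, went from 66.1, 59.8 and 47.8 to 150.1, 141 and 138 CPM (1.30 ± 0.15, adjusted p = 0.033). Pak6, a kinase downstream of Cdc42 and Rac, rose from 11.3, 12.55 and 10.7 to 38.0, 33.3 and 40.6 CPM, and Rapgef1, an exchange factor that activates Rap GTPases, from 126, 115 and 107 to 264, 267 and 249 CPM. In each of these 5 genes the lowest 3 h library was above the highest 1.5 h library. Pak6 and Rapgef1, like the called genes below that are neither in the plot of levels nor in a list, were named after their values were seen.

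The lists of this pathway held few calls. Of 26 delayed growth-factor response genes 2 rose and 0 fell, beside 0.682% and 0.141% of all genes tested. Plaur, the urokinase receptor, had 27.0, 29.9 and 40.6 CPM at 1.5 h against 76.2, 90.2 and 77.5 CPM at 3 h. Tfpi2, a secreted inhibitor of serine proteases, had 2.21, 1.73 and 1.51 CPM at 1.5 h against 8.06, 10.3 and 9.62 CPM at 3 h. The list's median log2 change was 0.66, its 3 h libraries lay above the 1.5 h ones in 10 members and below in 0, and 9 were higher in the 12-library fit, or 5 with the block. Over all genes tested 17.9% lay above and 16.8% below, and the 12-library fit called 12.1% higher and 8.23% lower. Of 21 ERK feedback genes 0 passed, and 5 were higher and 1 lower in the 12-library fit. Dusp4, a phosphatase that inactivates ERK in the nucleus, was at 33.4, 33.9 and 75.0 CPM at 1.5 h and 178, 164 and 148 CPM at 3 h (adjusted p = 0.0627 and, in the 12-library fit, 0.00651). Dusp5, a phosphatase with the same role, was at 146, 154 and 176 CPM at 1.5 h and 535, 567 and 209.7 CPM at 3 h, with replicate 3 the lowest at 3 h (adjusted p = 0.0942 in the 6-library fit and 0.0162 in the 12-library fit). Hbegf, a ligand of the EGF receptor, was at 680.2, 697 and 548 CPM at 1.5 h and 1074, 1144 and 1064 CPM at 3 h (adjusted p = 0.0826 in the 6-library fit and 0.00794 in the 12-library fit). Of 29 growth factors and cytokines 0 passed and 6 were higher in the 12-library fit, among them Clcf1, a cytokine of the interleukin 6 family named after its values were seen, at 46.5, 50.2 and 48.7 CPM at 1.5 h and 207, 201 and 102 CPM at 3 h (adjusted p = 0.0504 in the 6-library fit and 0.00814 in the 12-library fit).

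Some called rises were in genes known for synapses or ion channels, put side by side here after their values were seen. Insyn2a, an organiser of inhibitory synapses, went from 1.31, 1.96 and 1.61 to 8.26, 12.3 and 19.2 CPM (log2 3.01 ± 0.42, adjusted p = 0.0483), highest in replicate 3 at 3 h. Kcnf1, a subunit that modifies voltage-gated potassium channels, went from 3.72, 3.06 and 3.73 to 19.6, 20.8 and 28.3 CPM (2.71 ± 0.25, adjusted p = 0.0194). Kcnk3, a background potassium channel, went from 16.6, 17.9 and 8.56 to 56.4, 61.8 and 58.8 CPM (2.04 ± 0.29, adjusted p = 0.0483), from a control level of 1.91 ± 1.02. Nptx1, a neuronal pentraxin that gathers AMPA receptors, went from 6.74, 4.94 and 3.83 to 24.7, 25.2 and 19.8 CPM. The related Nptx2 went from 27.5, 30.7 and 29.1 to 60.3, 69.0 and 57.4 CPM, and their membrane-bound relative Nptxr from 123, 127 and 102 to 275, 299 and 302 CPM. All 3 pentraxin genes had their 3 h libraries above their 1.5 h libraries, with log2 changes of 2.16 ± 0.28, 1.09 ± 0.14 and 1.31 ± 0.14. Baiap2, a membrane-bending scaffold of dendritic spines, rose from 39.0, 45.6 and 40.9 to 94.9, 93.6 and 95.1 CPM. No gene of the neuronal cytoskeleton and synapse list passed (0 of 22), and its median log2 change was -0.72. The median difference was -0.80, -0.80 and 0.02 in replicates 1, 2 and 3. The 3 h libraries lay above the 1.5 h ones in 4 members and below in 4 (17.9% and 16.8% over all genes tested). In the 12-library fit 4 were higher and 4 lower, beside 12.1% and 8.23% of all genes.

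Adrb1, the beta-1 adrenergic receptor, fell from 72.8, 67.5 and 69.0 to 30.8, 36.0 and 31.0 CPM (-1.10 ± 0.13, adjusted p = 0.033), back near its control level of 31.6 ± 5.20. Akap9, which anchors protein kinase A at the Golgi and centrosome, fell from 137, 123 and 117 to 74.4, 68.5 and 69.2 CPM, and Apc2, a relative of the APC scaffold of the Wnt pathway, from 141, 149 and 80.2 to 36.0, 39.8 and 40.7 CPM. Dvl2, which relays Wnt signals, rose from 29.6, 34.4 and 26.2 to 59.6, 68.1 and 74.2 CPM. Of 19 tested Wnt genes 0 passed.

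Luc7l3, Pnn and Thoc2, which act in RNA processing, were among the 13 falls. Luc7l3, a splicing factor associated with the U1 particle, went from 54.3, 50.9 and 50.3 to 17.1, 16.7 and 18.1 CPM (log2 -1.58 ± 0.13, adjusted p = 0.0194). Pnn, a component of splicing speckles, fell from 50.1, 51.8 and 44.5 to 25.6, 20.6 and 23.7 CPM. Thoc2, a subunit of the THO complex of mRNA export, fell from 101, 89.6 and 82.8 to 49.4, 46.4 and 50.02 CPM. The libraries of a time lay close together in all 3, replicate 3 included. Controls stood at 55.6 ± 6.72, 60.5 ± 3.87 and 89.8 ± 7.61 CPM for these genes and the 6 h libraries at 14.6 ± 3.45, 25.8 ± 2.50 and 36.5 ± 13.8 CPM (mean ± SD, n = 3). Senp7, a protease that trims SUMO chains, fell alike, from 36.6, 32.4 and 29.9 to 11.8, 11.5 and 13.9 CPM. The decapping activator Dcp1a rose, from 34.6, 36.4 and 33.2 to 70.5, 79.3 and 59.6 CPM. These genes were put side by side after their values were seen.

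Several called genes encode transporters or metabolic enzymes, and they too were put side by side after their values were seen. Slc20a1, a sodium-phosphate cotransporter, went from 1145, 1106 and 1223 to 2639.6, 2642 and 2861 CPM. Slc1a5, a transporter of glutamine and other neutral amino acids, went from 63.9, 62.3 and 67.2 to 157, 154 and 148 CPM. Slc1a5 shared the smallest adjusted p of the comparison (0.0194) with 13 other genes. Its 3 libraries at either time lay within a few CPM of each other. Slc16a6 and Slc16a14 belong to the monocarboxylate transporter family. The former rose from 29.1, 29.6 and 28.4 to 58.9, 71.5 and 59.0 CPM and the latter from 10.6, 11.1 and 14.8 to 46.0, 50.4 and 29.0 CPM, with its smallest rise in replicate 3. Lpin1, a phosphatidate phosphatase, rose from 22.2, 27.0 and 28.1 to 84.8, 94.1 and 83.2 CPM (log2 1.76 ± 0.15, adjusted p = 0.0194). Gpat3, which starts glycerolipid synthesis, rose from 49.3, 35.4 and 53.6 to 148, 143 and 111 CPM. Gfpt2, the entry enzyme of hexosamine synthesis, rose from 45.3, 46.7 and 53.5 to 162, 152 and 126 CPM. Pdp1, which activates pyruvate dehydrogenase, rose from 136, 136 and 133 to 269.7, 288 and 236 CPM. Angptl4 encodes a secreted protein that inhibits lipoprotein lipase. It fell from 164, 151 and 230.4 to 38.0, 34.1 and 62.1 CPM (-2.02 ± 0.29, adjusted p = 0.0493), highest in replicate 3 at both times, and continued to 19.8 ± 15.6 CPM at 6 h from 306 ± 18.1 in controls. It was the 1 call among 17 FOXO targets and the 1 among 19 glucocorticoid targets, beside 0.141% of all genes tested called lower. None of the 21 glycolysis genes passed, although 7 were higher in the 12-library fit (12.1% over all genes), or 3 with the block. They included the glucose transporter Slc2a1 at 492, 444 and 702 CPM at 1.5 h and 1366, 1265 and 938 CPM at 3 h (adjusted p = 0.0823 in the 6-library fit and 0.00998 in the 12-library fit).

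Transcription and chromatin regulators were called in both directions, since Fos, Hes1, Id1 and Id3 fell and the genes below rose. Sox9, a factor of astrocyte identity, went from 148, 149.7 and 143 to 253, 267 and 251 CPM (log2 0.80 ± 0.12, adjusted p = 0.0493) and back to 168 ± 24.3 CPM at 6 h. Rorb, an orphan nuclear receptor, rose from 34.3, 30.9 and 32.8 to 66.7, 68.2 and 70.1 CPM. It was the 1 call among 16 clock genes, beside 0.682% of all genes tested called higher. Of these 16 genes 6 were higher and 1 lower in the 12-library fit, beside 12.1% and 8.23% of all genes. Creb5, a factor that binds cAMP response elements, rose from 11.9, 14.3 and 13.3 to 30.4, 30.4 and 32.5 CPM. Nfya, a subunit of the CCAAT-binding factor, rose from 50.9, 53.8 and 61.4 to 116, 124 and 128 CPM. Tet3, which oxidises methylcytosine, rose from 31.5, 30.6 and 25.2 to 59.0, 61.5 and 57.3 CPM. Bahd1 takes part in forming heterochromatin, and its level went from 57.4, 64.6 and 58.6 to 186, 182 and 124 CPM, with the smallest rise in replicate 3. Among the other 17 tested astrocyte identity genes none passed. The list of 18, Sox9 included, had a median log2 change of 0.36. Its median difference was 0.57, 0.66 and -0.10 in replicates 1, 2 and 3. In the 12-library fit 3 of the 18 were higher and 0 lower, beside 12.1% and 8.23% of all genes. Gfap, the astrocyte intermediate filament, was at 3295, 3236 and 2906 CPM at 1.5 h and 1339.6, 1526 and 2449.6 CPM at 3 h (adjusted p = 0.131), lower at 3 h in each replicate number and least so in replicate 3.

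Further called rises, likewise grouped after their values were seen, were in genes known for the matrix or the cytoskeleton. Cemip, which starts the breakdown of hyaluronan, went from 33.9, 40.5 and 28.1 to 135, 168 and 124 CPM (2.06 ± 0.20, adjusted p = 0.0194), and the hyaluronan receptor Layn from 20.9, 17.3 and 18.9 to 42.4, 44.3 and 36.4 CPM. Haus8, a subunit of the augmin complex that branches microtubules, rose from 32.7, 33.6 and 36.9 to 110.3, 105 and 108 CPM, and Fhdc1, a formin that acts on actin and microtubules, from 7.04, 6.51 and 10.3 to 31.8, 40.9 and 53.5 CPM. Ppp1r13b, a partner of p53, rose from 7.35, 8.39 and 4.93 to 27.7, 32.9 and 29.2 CPM. Of 29 matrix and integrin genes 0 passed.

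Other called genes that rose, given by their log2 change with SE, were Fam117a (2.25 ± 0.32), Fam102a (2.17 ± 0.27), Ptchd1 (2.12 ± 0.29), Klhl26 (1.72 ± 0.16), Ankrd63 (1.60 ± 0.18), Tuft1 (1.59 ± 0.24), Arhgap22 (1.57 ± 0.15), Tbkbp1 (1.55 ± 0.23), Abtb2 (1.34 ± 0.14) and Sipa1l2 (1.30 ± 0.17). The remaining rises, of 0.74 to 1.25, were those of Lonrf1, Ahdc1, Chst1, Bin1, Tfcp2, Hps6, Taf4b, Rassf8, Atp8b2, Mapk4, Nopchap1, Zswim6, Mgat3, Zdhhc18, Tanc1, Zbtb21 and Sema4b. Their 3 h libraries all lay above their 1.5 h libraries.

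Few genes switched on or off in the strict sense. Counting without the test, 14 genes lay under 1 CPM in all 1.5 h libraries and at 1 CPM or more in all 3 h libraries, and 30 did the reverse. In the 6-library fit 1 of the 14 (Jag2) and 0 of the 30 passed, in the 12-library fit 10 and 13 did, and with the block added to that fit 9 and 7 of the called genes crossed the line. Genes named here were chosen after their values were seen. Galr1, a galanin receptor, was at 0.201, 0 and 0.302 CPM, from 2, 0 and 3 reads, and then at 4.72, 7.26 and 3.48 CPM (adjusted p = 0.0583 in the 6-library fit and 0.00984 in the 12-library fit). Hmx1, a homeobox factor, had 1, 0 and 1 reads at 1.5 h and 20, 19 and 14 at 3 h, and Eomes, a T-box factor, was at 0.402, 0.157 and 0.503 CPM at 1.5 h and 2.85, 2.53 and 1.01 CPM at 3 h (adjusted p of 0.0606 and 0.0979 in the 6-library fit, 0.00951 and 0.0282 in the 12-library fit). With the block Eomes no longer passed (adjusted p = 0.0544). Genes that went under the line included Myt1 and Insm1, zinc-finger factors of neuronal differentiation. Myt1 was at 22.6, 24.5 and 1.01 CPM at 1.5 h and 0.393, 0.330 and 0.458 CPM at 3 h (adjusted p = 0.0826 in the 6-library fit and 0.00794 in the 12-library fit), and Insm1 at 11.1, 10.7 and 1.91 CPM at 1.5 h and 0.787, 0.550 and 0.916 CPM at 3 h (adjusted p = 0.079 in the 6-library fit and 0.00732 in the 12-library fit). In both the high values were those of replicates 1 and 2 at 1.5 h, and replicate 3 was near 1 or 2 CPM at that time. Dok7, an activator of the muscle receptor kinase MuSK, showed no such split, with 1.51, 1.41 and 1.71 CPM at 1.5 h and 0.492, 0.110 and 0.183 CPM at 3 h (adjusted p = 0.0976 in the 6-library fit and 0.0143 in the 12-library fit).

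Levels of neural transcription factors were lower at 3 h in part. Of 17 tested members of the proneural list none passed in the 6-library fit, 10 had every 3 h library below every 1.5 h library against 0 above, and 9 were lower in the 12-library fit. Over all genes tested 16.8% lay below and 17.9% above, and 8.23% were lower in the 12-library fit. Sox2, a factor of neural stem cells and astrocytes, was at 170.0, 174 and 111 CPM at 1.5 h and 67.6, 67.2 and 59.9 CPM at 3 h (adjusted p = 0.0531 and, in the 12-library fit, 0.00211). Pou3f2, a POU-domain factor of neural cells, was at 17.9, 15.1 and 12.7 CPM at 1.5 h and 3.93, 4.73 and 8.70 CPM at 3 h (adjusted p = 0.0971 in the 6-library fit and 0.011 in the 12-library fit). In both genes every 3 h library lay below every 1.5 h library. The list's median difference was -0.69, -0.85 and -0.44 in replicates 1, 2 and 3. Of 12 repressors of neuronal fate 0 rose and 3 fell (0.682% and 0.141% over all genes tested), which are Hes1, Id1 and Id3 again. The 3 h libraries of this list lay below the 1.5 h ones in 6 members and above in 3. In the 12-library fit 5 were lower and 2 higher (8.23% and 12.1% over all genes). Its median difference was -0.93, -0.85 and -0.11 in replicates 1, 2 and 3. Rest, which silences neuronal genes, was at 48.4, 50.3 and 43.1 CPM at 1.5 h and 75.7, 74.9 and 87.7 CPM at 3 h and higher in the 12-library fit (adjusted p = 0.0604 in the 6-library fit and 0.0032 in the 12-library fit), and the splicing repressor Ptbp1 at 606, 619 and 577 CPM at 1.5 h and 589, 563 and 534 CPM at 3 h (adjusted p = 0.652 in the 6-library fit and 0.523 in the 12-library fit). Of 9 tested dopaminergic neuron genes 0 passed.

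The 3 stress and inflammation lists below had no call in the 6-library fit, and their higher members came from the other fits. Over all genes the 12-library fit called 12.1% higher and 8.23% lower, and the fit without replicate 3 called 37.6% and 38.1%. Of 25 NRF2 targets, which include antioxidant and detoxifying enzymes, 16 were higher in the 12-library fit and 0 lower, a count that was 7 with the replicate block. The 3 h libraries lay above the 1.5 h ones in 16 (17.9% over all genes tested). The median difference stood at 1.05 for both replicate 1 and replicate 2, and at 0.11 for replicate 3. Hmox1, which breaks down haem, was at 689, 581 and 989 CPM at 1.5 h and 5248, 4459 and 1187 CPM at 3 h (adjusted p = 0.0933 in the 6-library fit and 0.0217 in the 12-library fit), and Srxn1, which restores peroxiredoxins, at 24.6, 23.4 and 38.9 CPM at 1.5 h and 127, 135 and 50.6 CPM at 3 h (adjusted p = 0.0823 in the 6-library fit and 0.0211 in the 12-library fit). Without replicate 3, 24 of the 25 were higher and 0 lower. Of 35 integrated stress response genes 4 were higher and 1 lower in the 12-library fit, neither above the share over all genes. These counts were 2 and 1 with the block, and 31 and 3 without replicate 3. The list's median difference was 0.86, 0.84 and -0.05 in replicates 1 to 3. Of 29 NF-kB targets and cytokines 8 were higher and 2 lower in the 12-library fit, with medians of 0.71, 0.74 and 0.15. The microglia level moved with these differences, higher at 3 h in replicates 1 and 2 and slightly lower in replicate 3, and its part in them was not tested.

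**Figure D4:**
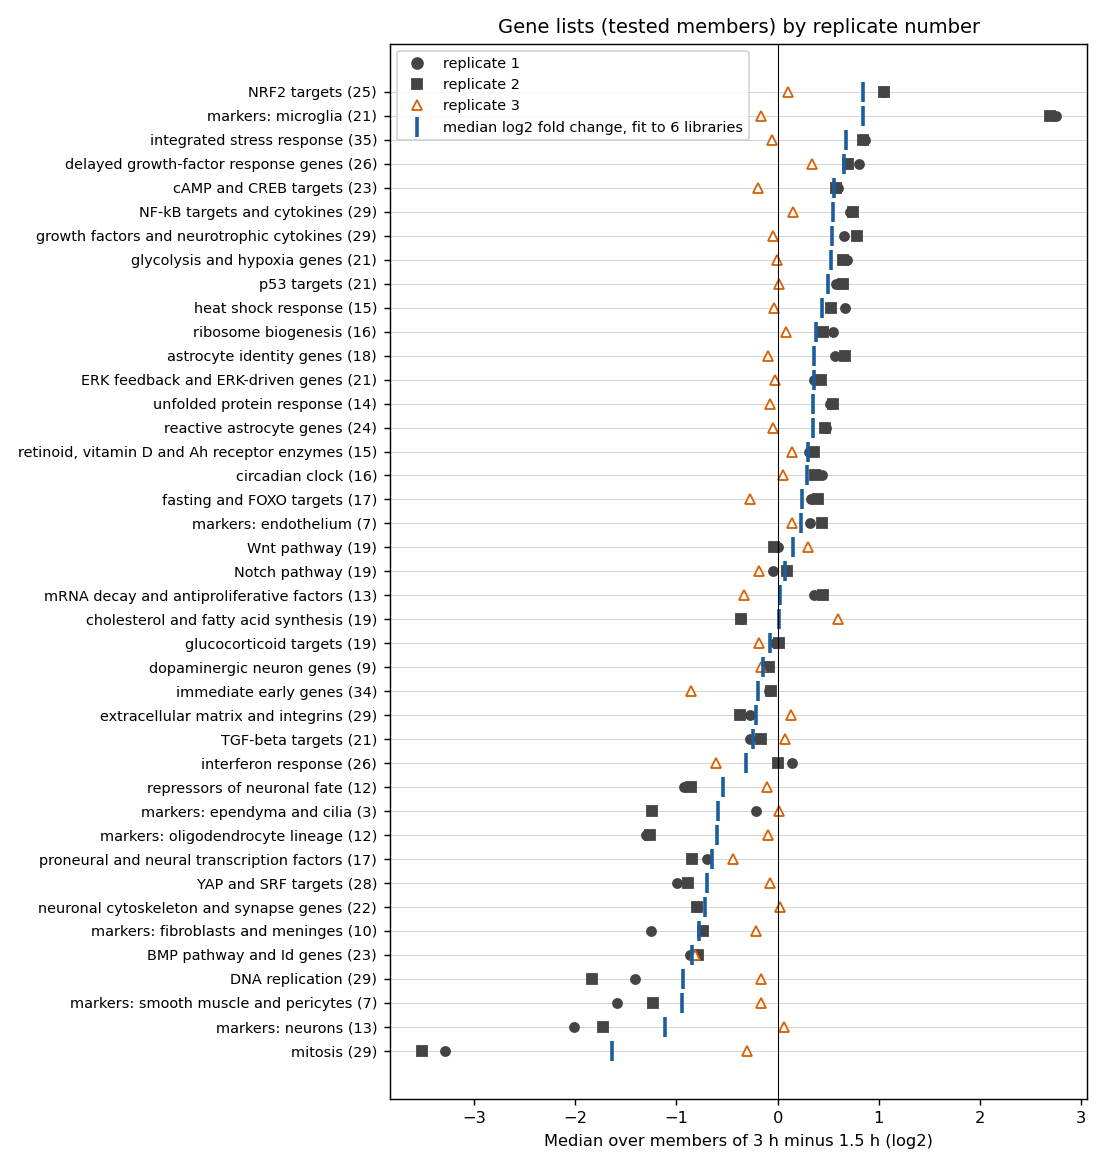
Median difference between 3 h and 1.5 h over the tested members of each of 41 lists (horizontal, log2; number of members in brackets), for replicates 1 and 2 (filled symbols) and 3 (open triangles), with the median log2 fold change of the 6-library fit as a blue bar. The triangles lie near 0 for most lists, apart from lists such as the BMP list (-0.82), the immediate early list (-0.86), the interferon list (-0.61) and the cholesterol list (0.59).

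Cell cycle genes differed mostly in replicates 1 and 2. None of the 29 mitosis genes or 29 DNA replication genes passed in the 6-library fit. In the 12-library fit 1 and 8 were lower (8.23% over all genes), and 0 and 2 with the block. Mki67, a marker of cycling cells, was at 231, 274 and 239.6 CPM at 1.5 h and 15.5, 9.35 and 183 CPM at 3 h (adjusted p = 0.285). The helicase subunit Mcm2 was at 133, 145 and 116 CPM at 1.5 h and 68.7, 70.7 and 87.0 CPM at 3 h (adjusted p = 0.0639 and, in the 12-library fit, 0.00717). The 3 h libraries lay below the 1.5 h ones in 23 mitosis and 21 replication genes (16.8% over all genes tested). They did so by little in replicate 3, where the median differences were -0.30 and -0.17. Without replicate 3 all 29 members of either list were lower, beside 38.1% of all genes.

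**Figure D5:**
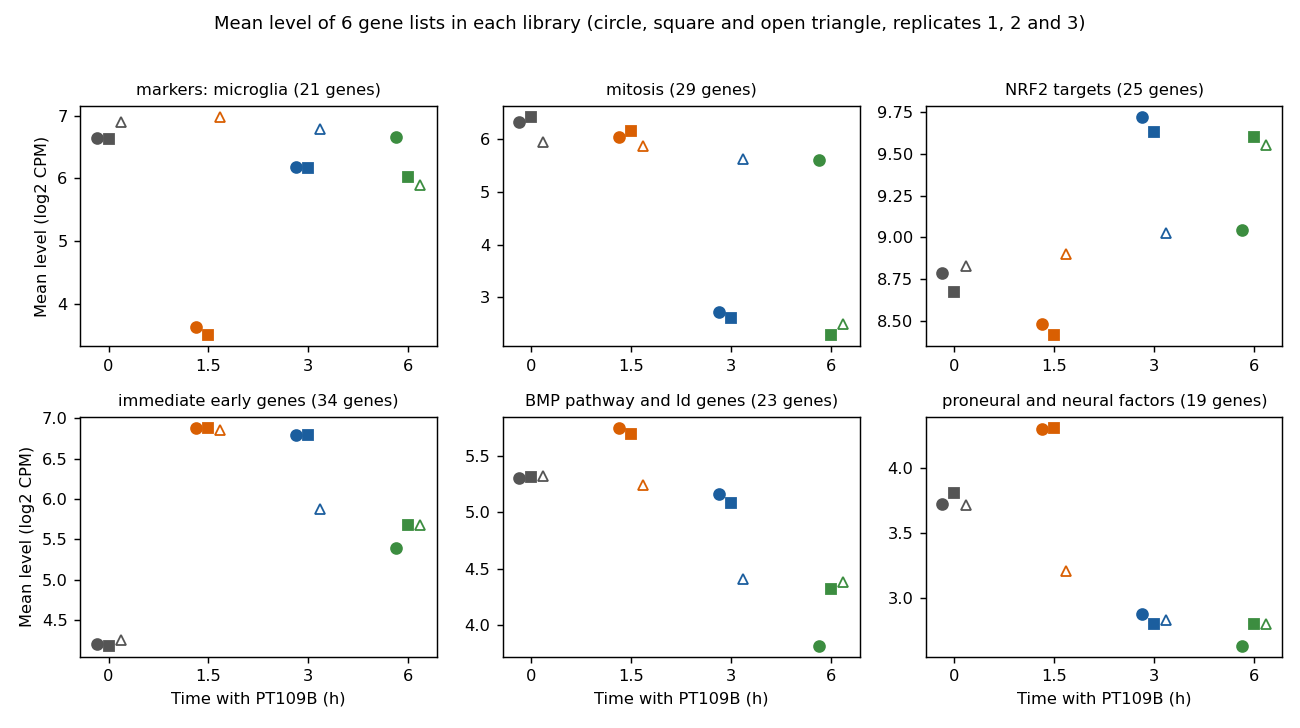
Mean level (log2 CPM) of 6 lists in each of the 12 libraries at 0, 1.5, 3 and 6 h, with circles, squares and open triangles for replicates 1, 2 and 3. The microglia markers are low in 2 libraries at 1.5 h, the mitosis genes are low in 2 libraries at 3 h and 2 at 6 h, and the BMP list is lower at 3 h than at 1.5 h for each replicate number.

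Markers of other cell types had no call in the 6-library fit, in any of the 7 lists. The summed level of the 21 microglia markers was 558 to 8448 CPM over the 1.5 h libraries and 6012 to 7485 CPM over the 3 h libraries, and all 21 ranges overlapped. Lyz2, a lysozyme of myeloid cells, was at 204, 212 and 4790.2 CPM at 1.5 h and 3493, 3582 and 4298 CPM at 3 h (adjusted p = 0.541). The 10 fibroblast and meningeal markers summed to 1488 to 5756 CPM at 1.5 h and 1416 to 2359 at 3 h, the 7 smooth muscle markers to 942 to 3156 and 860 to 1099, the 13 neuron markers to 344 to 375 and 398 to 1197, the 15 oligodendrocyte lineage markers to 907 to 1179 and 858 to 1374, and the 9 endothelial markers to 45.0 to 103 and 73.1 to 132. The 4 ependymal markers summed to 18.4 to 22.0 CPM and 17.3 to 19.8 CPM. No listed marker was at 0 in all 6 libraries. Sums weigh abundant members most, and for neuron and oligodendrocyte lineage markers the mean levels (log2 CPM) in replicates 1 and 2 ran the other way. For neuron markers the means were 4.01, 3.91 and 3.18 at 1.5 h and 2.19, 2.40 and 3.41 at 3 h, with a median log2 change of -1.11. When replicate 3 was left out, 11 of the 13 neuron markers were lower and 2 higher, beside 38.1% and 37.6% of all genes. For oligodendrocyte lineage markers the means were 5.10, 5.20 and 3.65 at 1.5 h and 2.59, 2.93 and 3.25 at 3 h. The part of these cells in the calls was not tested.

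Promoter letters were counted in the 52 called genes with a single RefSeq entry (42 higher and 10 lower) beside all 6586 tested genes with one, on both strands of the same 250 bases. The EGR letters GCGNGGGCG stood in 8 of 42 (19%) and 1 of 10 (10%), against 9.73% of all. The SP1 letters GGGCGG stood in 73.8% and 50% against 60.7%, TATAAA in 11.9% and 20% against 6.56%, CCAAT in 38.1% and 50% against 35%, and the AP-1 letters TGANTCA in 7.14% and 0% against 4.63%. The RBPJ letters stood in 0% and 10% against 5.12%, the E-box CACGTG in 7.14% and 0% against 8.08%, the ETS letters CCGGAAG in 9.52% and 20% against 13%, and the Smad letters GTCTG in 47.6% and 30% against 40.9%. For TGACGTCA, read by CREB, these shares were 2.38%, 0% and 2.6%, for its part TGACG 11.9%, 10% and 27.2%, for the ATF4 letters TGATGNAA 0%, 0% and 1.88%, for the antioxidant letters TGACNNNGC 7.14%, 20% and 12.4%, and for the serum response (CArG) letters 0%, 0% and 1.18%. SP1 and EGR letters can overlap, as can the antioxidant, CREB and AP-1 letters. The 2 short motifs TGACG and GTCTG are not marked in the printed stretches. With 10 and 42 windows these shares are descriptions, and no difference between them was tested.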

How the data were processed

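Gene levels were measured by RNA sequencing. Per the labels' protocols, RNA was extracted with TRIzol and libraries were made with a NEBNext Ultra kit. The deposited table holds, for 9721 genes and 12 libraries, estimated counts with decimals and the authors' FPKM values (fragments scaled to gene length and library total). Per the submitters' processing notes, StringTie 2.2.1 was among the tools. The build and gene annotation were not given in the sources used here. Expected counts were rounded to whole numbers, as 9.49% of values were not whole.

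The 6 libraries were fitted with edgeR 4.0.16 (R 4.3.3), using its low-count filter, TMM scaling, a robust quasi-likelihood fit and Benjamini-Hochberg adjustment over 9240 genes, with a threshold of 0.05. Fold changes used a prior count of 0.125. Levels are CPM on library totals scaled by TMM over all 12 libraries, and log2 CPM adds 0.5 to each count before scaling. Alternatives used DESeq2 1.42.0 and limma 3.58.1. The calculation was tested on simulated counts, drawn independently for each library. They held no deviation shared by same-numbered libraries, so that test does not bear on the effect of replicate 3. Samples were grouped by their labels. Totals of 9368972 to 12254963 counts limit precision for genes at a few reads. Promoters came from RefSeq's GRCr8 table and were counted only for genes with a single entry.

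Same-numbered libraries of the 2 times deviated together from their group means (correlations across genes of 0.13, 0.13 and 0.19, each above 0.1). The replicate number was taken to pair them on that basis, from the data and not from the labels. The crossed pairs of replicates 1 and 2 correlated at 0.17 and 0.14, so these values set only replicate 3 apart by its number. At 6 h it was replicate 1 that stood apart, which the block over 12 libraries does not take into account. The blocked count therefore stands beside the main one.

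Named genes were the 15 largest called changes in each direction at a mean of at least 2 CPM, up to 4 called members and the most abundant uncalled member of each of 41 lists, a set of 50 known genes (1 of which is not reported here), and genes crossing 1 CPM. Others are said to be named after their values were seen. The members, the set and the lists were chosen with earlier results of these data known.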

Additional observations from a re-analysis of the deposited data

How the results depend on the processing

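All 76 called genes kept their direction under every alternative run, and the number that passed did not hold. The libraries of these genes did not overlap between the times. Fits that dropped libraries, added the block or changed the filter or test could therefore hardly have reversed a direction. Only the changes of scaling, FPKM among them, could readily have done so. Beside 63 higher and 13 lower, DESeq2's size factors (RLE) gave 36 higher and 9 lower, upper-quartile scaling 34 and 16, library size 6 and 7, and depth from count and FPKM 6 and 6. No low-count filter gave 45 and 8, a stricter filter 78 and 19, and a fit without robust estimation 41 and 7. DESeq2 gave 718 and 665 (75 of the 76 among them), limma-voom 80 and 19, and limma-trend 7 and 7 on log2(FPKM + 0.1) and 6 and 5 on log2(FPKM + 1). All 12 libraries gave 1148 and 781. The replicate block gave 0 and 0, and the block over all 12 libraries 796 and 447. Replicate 1 at 1.5 h correlated slightly better with replicate 2 at 3 h (0.17) than with its own number (0.13). Replicate 2 at 1.5 h correlated at 0.14 with replicate 1 at 3 h and at 0.13 with its own number. Leaving out single libraries or whole replicate numbers gave 0 to 3494 higher and 0 to 3543 lower.

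Called genes that crossed 1 CPM upward numbered 1, and 0 under RLE, upper-quartile, library-size and depth scaling, without the filter, with the replicate block, without robust estimation and on log2(FPKM + 1). They numbered 10 over 12 libraries, 9 with the block over 12, and 0 to 13 when libraries were left out. Downward crossings numbered 0 in the 6-library fit, 13 over 12 libraries, 7 with the block over 12, 5 in DESeq2, and 0 to 28 when libraries were left out. Without replicate 3 the direction reversed for Lif (0.22 on the log2 scale, against -0.08), Nr4a1 (0.42 against -0.22) and Per1 (0.26 against -0.07), none of them called with all 6 libraries. When libraries were left out their changes ran from -0.27 to 0.22 for Lif, -0.72 to 0.42 for Nr4a1 and -0.37 to 0.27 for Per1. Genes with under 10 reads at 1.5 h, such as Jag2 and Galr1, have fold sizes limited by depth. The cause of the other changes in these counts was not tested.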
